A study of Homo sapiens with 48 samples.

Results

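The 42 genes described here encode nucleolar proteins that make ribosomes: subunits of RNA polymerase I, core proteins of small nucleolar ribonucleoproteins (snoRNPs), assembly factors of both ribosomal subunits, and proteins that organise the nucleolus. They were taken by gene name from count tables of 19923 genes, and all 42 were found in every library. The tables come from Kelly and NGP, established human neuroblastoma lines. The labels call both lines MYCN-amplified, and both wild type. Each line was kept for 3 or 6 days in the vehicle DMSO or in 8 µM STM2457, an inhibitor of METTL3, the enzyme that places most N6-methyladenosine (m6A) on messenger RNA. Actinomycin D at 10 µg/ml, which blocks transcription, was then given for 3 h or 6 h, or not at all (0 h). This makes 24 groups of 2 libraries, 48 in all, of poly(A)-selected RNA. The labels do not say whether the 2 libraries of a group came from separate cultures, so every p-value below measures the spread between these libraries, which may be technical. In bulk RNA a change in the number of cells of one state and a change in RNA per cell cannot be told apart.

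Ribosomes begin in the nucleolus, where RNA polymerase I copies the ribosomal DNA into one long precursor RNA. Box C/D snoRNPs, with fibrillarin (FBL) as methyltransferase, and box H/ACA snoRNPs, with dyskerin (DKC1) as pseudouridine synthase, modify that precursor. The small subunit processome (the UTP proteins, WDR43, WDR75, NOP14) folds and cuts it, and the PES1, BOP1 and WDR12 complex (PeBoW) works on the large subunit. Nucleophosmin (NPM1) and nucleolin (NCL) are abundant proteins that shape the nucleolus and bind ribosomal RNA and proteins. The genes of this machinery are classic targets of MYC proteins, which bind the sequence CACGTG, called the E-box.

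Depth ran from 11139550 to 21942238 fragments in genes per library, and the 42 genes together took 0.962% to 1.20% of them. All 42 passed the filter on low counts in both lines. NOP2 was the thinnest, with 14 to 160 fragments per library, and 54.4% of its exon bases also lie in AC006064.6. In 8 of the 42 genes more than 5% of exon bases lie in another gene, NHP2 (27.6%), NOP16 (19.8%), RRS1 (11.3%) and NOC2L (6.8%) among them. The count headers name no option for strand or overlap, so their reads and those of the overlapping gene cannot be told apart. NPM1 has processed pseudogenes elsewhere in the genome, and how reads that match several places were treated is not given in the sources used here. Of the 12 adrenergic neuroblastoma markers 12 had a median of at least 1 CPM (counts scaled to library size) in Kelly and 11 in NGP, where TH was below 1 CPM. Of 5 immune markers 1 (CD68) reached that median in each line, and of 3 endothelial markers 1 (VWF) in Kelly and 0 in NGP. Of 5 fibroblast markers 2 reached it in Kelly and 3 in NGP, and of 6 mesenchymal markers 5 and 3. METTL3 itself was not called, with log2 changes from 0.06 to 0.21 in the 4 comparisons at 0 h and adjusted p-values from 0.743 to 1 in the edgeR quasi-likelihood test (Benjamini-Hochberg). STM2457 acts on the protein, so the level of the mRNA checks no label.

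The E-box was present in many of the promoters. RefSeq promoter windows of GRCh38.p14, 250 bases before to 50 after each start, were matched for 36 of the 42 genes, and 19 of these (52.8%) held CACGTG, which reads the same on both strands. Of all 27305 genes with a promoter window 8.8% held it, and of 8443 with a mean count of at least 100 it was found in 13.4%. A gene was counted if any of its windows held the motif. Small subunit factors had it in 9 of 13, scaffold genes in 4 of 6 and the RNA polymerase I subunits in 0 of 3. The windows matched for NPM1, NCL, NOC2L, NOP16 and NHP2 held no CACGTG, and none was matched for RRS1 and NOLC1. The motif was searched by its letters alone and a match is no evidence of binding. The 30-base windows around it are shown for 7 genes whose values are given below, chosen because the motif lies beside the start, with the E-box in capitals. It lay farther off in others, at position -241 from the start in UTP14A and -64 in LYAR, and UTP18 and NOP10 hold it both near the start and farther upstream.
WDR43, chr2:28894658-28894687, plus strand: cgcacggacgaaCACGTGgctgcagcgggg
BYSL, chr6:41921515-41921544, plus strand: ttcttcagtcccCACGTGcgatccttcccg
UTP20, chr12:101280083-101280112, plus strand: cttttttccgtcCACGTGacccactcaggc
GNL3, chr3:52686026-52686055, plus strand: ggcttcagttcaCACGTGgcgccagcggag
NOP14, chr4:2963374-2963403, minus strand: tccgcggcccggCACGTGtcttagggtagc
FBL, chr19:39846356-39846385, minus strand: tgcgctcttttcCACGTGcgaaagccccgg
PES1, chr22:30591880-30591909, minus strand: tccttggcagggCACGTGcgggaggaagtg
In these 7 promoters the motif began between 10 bases before the start (UTP20) and 28 bases after it (BYSL).

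The 42 genes differed widely in level. On the scale of CPM per kilobase of exon, in the 4 DMSO libraries at 0 h of each line, NPM1 was highest with 564 ± 15 (SD, n = 4) in Kelly and 567 ± 19 (SD, n = 4) in NGP. NCL followed with 346 ± 37 (SD, n = 4) and 322 ± 40 (SD, n = 4). These groups of 4 hold both culture times. NOLC1, a chaperone of snoRNPs, came next with 107 ± 13 (SD, n = 4) in Kelly and 113 ± 10.1 (SD, n = 4) in NGP, then FBL with 81.0 ± 5.5 and 99.5 ± 10.4 and NHP2, a box H/ACA core protein, with 83.4 ± 13.3 and 81.0 ± 9.2 (SD, n = 4 each). In NGP the helicase DDX21, with 85.8 ± 7.1 (SD, n = 4), was above NHP2 by less than their spread. FBL and NHP2 did not differ beyond their spread in Kelly. NOP2 was lowest, at 1.16 ± 0.48 in Kelly and 0.41 ± 0.15 in NGP (SD, n = 4 each). Its level was divided by all its exon bases, including the 54.4% shared with AC006064.6, and the part of this overlap was not tested. The genes lie on 18 chromosomes, with a median of 15.5 exons after overlapping exons were merged against 12 in the 10365 genes with a mean count of at least 100. RRS1 has a single exon.

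The first question was what METTL3 inhibition did to these genes before transcription was blocked. Few of the 42 changed. NPM1 mRNA fell in 3 of the 4 comparisons, by 0.28 to 0.45 on the log2 scale, and NCL mRNA rose in 3 of 4, by 0.16 to 0.34. NOC2L, an assembly factor of the large subunit also known as an inhibitor of histone acetyltransferases, fell at 3 days in both lines. No other gene was called in more than 1 comparison. These are changes relative to the typical gene, to which the scaling assigns no change.

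In Kelly at 3 days 3 of the 42 passed the test, 1 higher and 2 lower, beside 1.68% of all genes tested. In Kelly at 6 days 2 passed, 1 higher and 1 lower, beside 3.97% of all genes. In NGP at 3 days 7 passed, 1 higher and 6 lower, beside 3.7% of all genes. DESeq2 called 12 there (1 higher, 11 lower), beside 900 of all genes. In NGP at 6 days 3 passed, 2 higher and 1 lower, beside 7.99% of all genes. The median log2 change of the 42 was -0.08, 0.03, -0.14 and 0.04 in the same order, and that of all genes 0.00, 0.00, 0.00 and 0.02. The shares of the 42 called at 6 days, 4.76% and 7.14%, were close to the background. Those at 3 days, 7.14% in Kelly and 16.7% in NGP, were above it. Shares among genes of similar count were not computed. Scaling to the ERCC spike-ins, RNA standards added at a step the labels do not name, moved the median of all genes to 0.38, -0.21, 0.10 and -0.02, and that of the 42 genes to 0.32, -0.22, -0.03 and 0.00. With that scaling 18 genes were called in Kelly at 3 days, all higher, 7 in Kelly at 6 days, all lower, 3 in NGP at 3 days (1 higher, 2 lower) and 2 in NGP at 6 days (1 higher, 1 lower).

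**Figure D1:**
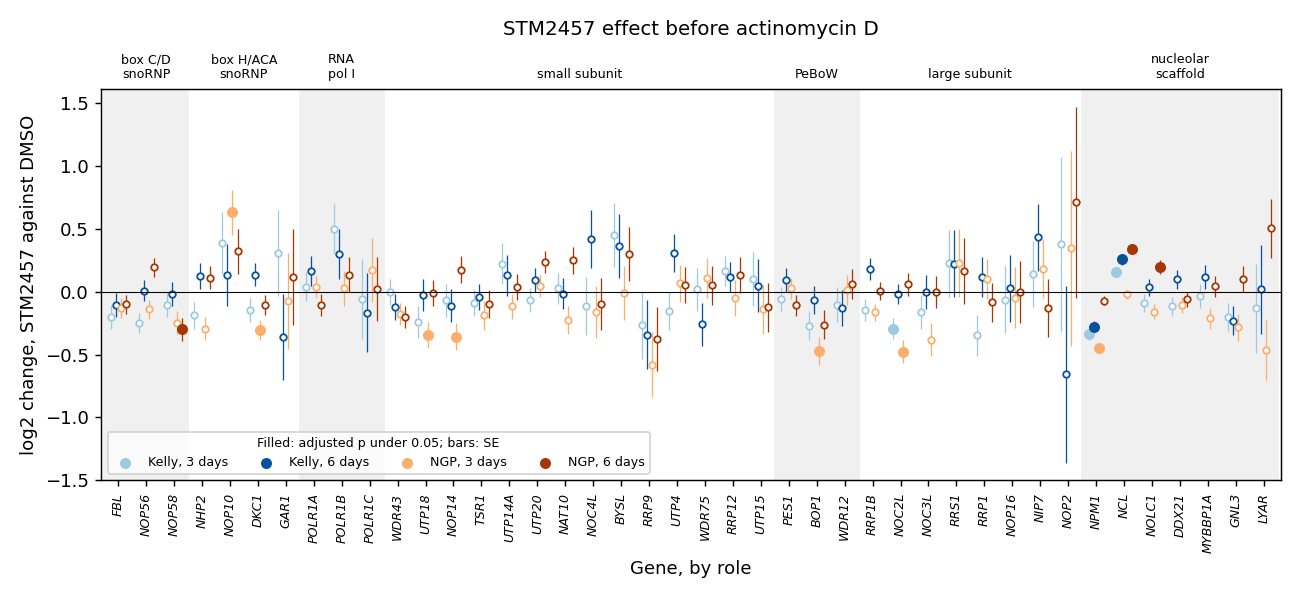
Log2 change in STM2457 against DMSO at 0 h for each of the 42 genes, grouped by role along the horizontal axis and ordered by level within a role. Points are the 4 comparisons, bars are SE and filled points passed the test; most points lie within 0.5 of 0, and the filled points of NPM1 lie below 0 and those of NCL above it.

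NPM1 stood at 2217 and 2177 CPM in the Kelly DMSO libraries at 3 days and at 1693 and 1777 in STM2457. At 6 days the Kelly values were 2163 and 2077 in DMSO and 1751 and 1748 in STM2457. In NGP at 3 days they were 2274 and 2112 in DMSO and 1607 and 1604 in STM2457. The groups did not overlap in any of these 3 comparisons, and every STM2457 library was below every DMSO library. NGP at 6 days was different, with 2128 and 2162 CPM in DMSO and 2078 and 2002 in STM2457, groups that also did not overlap but lay close together. The log2 changes were -0.34 ± 0.04 (SE), -0.28 ± 0.04, -0.45 ± 0.04 and -0.07 ± 0.04, with adjusted p-values of 7.27e-10, 3.87e-07 and 1.37e-15 for the first 3 in the edgeR quasi-likelihood test (Benjamini-Hochberg). With ERCC scaling the change in Kelly at 3 days was 0.06 and no longer a fall, while those in Kelly at 6 days (-0.53) and NGP at 3 days (-0.35) remained called.

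NCL moved the other way. In Kelly it read 2491 and 2651 CPM in DMSO and 2820 and 2911 in STM2457 at 3 days, and 2189 and 2105 against 2571 and 2569 at 6 days. In NGP at 6 days it read 1871 and 2066 CPM in DMSO and 2512 and 2470 in STM2457. In these 3 comparisons all STM2457 libraries were above all DMSO libraries. In NGP at 3 days the groups overlapped, with 2407 and 2439 CPM in DMSO and 2338 and 2439 in STM2457. The log2 changes were 0.16 ± 0.04 (SE) and 0.26 ± 0.04 in Kelly and -0.02 and 0.34 ± 0.04 in NGP, with adjusted p-values of 0.0203, 5.75e-07 and 1.67e-11 for the 3 that passed the edgeR quasi-likelihood test (Benjamini-Hochberg). With ERCC scaling the change of NCL in Kelly at 6 days was 0.01 and was not called. Without DMSO replicate 1 or STM2457 replicate 2 of Kelly at 3 days, NCL and NOC2L were no longer called there and 1 of the 42 genes was left.

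**Figure D2:**
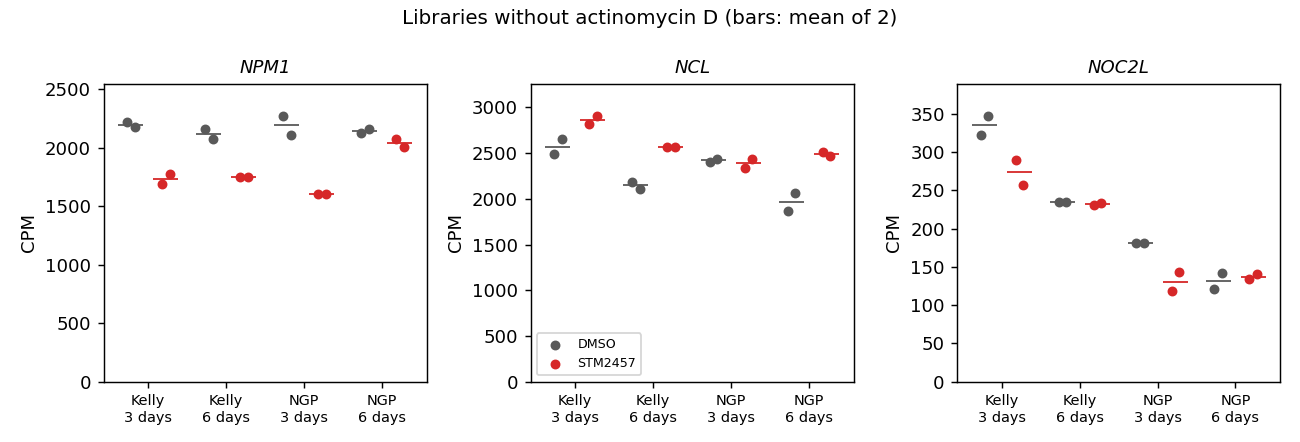
NPM1, NCL and NOC2L in each library at 0 h, in CPM on an axis from 0; grey points are DMSO, red points STM2457 and bars the mean of 2. NPM1 is below its DMSO libraries by most in NGP at 3 days, and the DMSO libraries of NCL and NOC2L are lower at 6 days than at 3 days in both lines.

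NOC2L read 322 and 348 CPM in the Kelly DMSO libraries at 3 days and 290 and 257 in STM2457. The NGP libraries of 3 days read 182 and 182 CPM in DMSO and 118 and 143 in STM2457. The STM2457 libraries were the lower ones in both lines. The changes were -0.29 ± 0.08 (SE; adjusted p = 0.0287) and -0.48 ± 0.09 (adjusted p = 0.000204) in the edgeR quasi-likelihood test (Benjamini-Hochberg). In Kelly the call was also lost without DMSO replicate 2, and in NGP without STM2457 replicate 1. Scaled to ERCC, the Kelly change was 0.11, no longer a fall, and the NGP change was -0.38. At 6 days, where the log2 changes were -0.02 in Kelly and 0.06 in NGP, no change was called.

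The remaining calls were spread over the roles. In NGP at 3 days BOP1 of the PeBoW complex (-0.47 ± 0.12, SE), the small subunit factors NOP14 (-0.36 ± 0.10) and UTP18 (-0.35 ± 0.10) and the pseudouridine synthase DKC1 (-0.31 ± 0.08) fell. NOP10, another box H/ACA core protein, rose there by 0.63 ± 0.18. In NGP at 6 days the box C/D core protein NOP58 fell by 0.30 ± 0.09 and NOLC1 rose by 0.20 ± 0.06. These calls rest on all libraries: leaving out any 1 of the 4 libraries of NGP at 3 days left 2 to 4 genes called, and NOP14, DKC1, NOP10 and UTP18 were called in none of those refits. NOLC1 at 6 days was likewise lost in each refit, and without STM2457 replicate 2 only 1 of the 3 genes was left. NOP58 was lost without DMSO replicate 1 or STM2457 replicate 2 of that time, and BOP1 without STM2457 replicate 2 at 3 days. No RNA polymerase I subunit was called in any of the 4 comparisons, and their log2 changes lay between -0.17 and 0.50.

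Other lists of ribosome genes serve as a comparison. Of 90 further ribosome biogenesis genes, 0, 2, 3 and 7 passed the test in Kelly at 3 and 6 days and NGP at 3 and 6 days. NOP53, a large subunit factor, was lower in 3 of the 4, by 0.36 in Kelly at 6 days and by 0.37 and 0.40 in NGP at 3 and 6 days. Of 78 genes of cytosolic ribosomal proteins, 31, 48, 45 and 52 passed, every one of them lower. Their median log2 changes were -0.18, -0.29, -0.23 and -0.24. These falls are relative to the typical gene. The comparison lists were not tested with ERCC scaling, here or below, and that scaling moved the median of all genes in Kelly at 3 days to 0.38.

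The effect of the inhibitor at 0 h differed between 3 and 6 days in NGP for 5 of the 42 genes, beside 2.8% of all genes, and each change was more positive at 6 days. The differences were 0.38 ± 0.05 (SE) for NPM1, 0.36 ± 0.05 for NCL, 0.36 ± 0.08 for NOLC1, 0.53 ± 0.15 for NOP14 and 0.54 ± 0.13 for NOC2L. Their adjusted p-values in the edgeR quasi-likelihood test (Benjamini-Hochberg) were 8.95e-08, 4.06e-07, 0.0032, 0.0237 and 0.00556. NPM1 and NCL were called in all 8 refits that left out 1 library. DESeq2 called 11 genes for this difference in NGP, each more positive at 6 days, beside 660 of all genes. NOP14 was lost in 7 of the refits, NOLC1 without replicate 2 of the 3-day DMSO or STM2457 group, and NOC2L without 3-day STM2457 replicate 1 or 6-day DMSO replicate 1. With ERCC scaling 2 genes were called. In Kelly 0 of the 42 were called for this difference, beside 0.788% of all genes, with 7 at an unadjusted p under 0.05. The share of all genes at that unadjusted p, here and below, was not computed. DESeq2 called 1 of the 42, beside 309 of all genes, and limma-voom 0. With ERCC scaling 27 were called, each with a lower effect at 6 days, where the median of all genes was -0.61.

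Between the lines the effect differed for 0 of the 42 genes at 3 days, where 2 had an unadjusted p under 0.05 in edgeR and 0 were called by DESeq2 and by limma-voom. At 6 days it differed for NPM1, by 0.22 ± 0.06 (SE; NGP minus Kelly, adjusted p = 0.0256 in the edgeR quasi-likelihood test (Benjamini-Hochberg) in a joint fit of 48 libraries). That call was lost in 5 of 8 refits without 1 library: either STM2457 library or DMSO replicate 1 of Kelly, and replicate 1 of either group of NGP. The share of all genes called was 0.161% at 3 days and 1.75% at 6 days. With ERCC scaling 10 genes were called at 3 days and 5 at 6 days.

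Levels also differed with culture time in control cells. In Kelly in DMSO without actinomycin D, 16 of the 42 were lower at 6 days than at 3 days and 0 were higher, beside 5.74% of all genes lower and 2.78% higher (8.52% in either direction). The log2 change was negative in 40 of the 42, with a median of -0.29 against 0.00 for all genes. UTP20, a very large scaffold protein of the small subunit processome, read 245 and 278 CPM at 3 days and 168 and 169 at 6 days. NOC2L fell from 322 and 348 CPM to 234 and 235, and NCL from 2491 and 2651 to 2189 and 2105. The groups of these genes did not overlap, and their log2 changes were -0.63 ± 0.10 (SE), -0.51 ± 0.08 and -0.26 ± 0.04.

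The Kelly genes that fell came from 6 of the 7 roles: 4 of 14 small subunit factors (NOC4L, UTP20, UTP4, TSR1), 3 of 8 large subunit factors (NOC2L, RRP1, RRP1B), PES1 and BOP1 of PeBoW, DKC1 and NHP2 of the box H/ACA proteins, NOP56 of box C/D, and NCL, NOLC1, DDX21 and MYBBP1A of the scaffold group. NPM1 was not among them (-0.05). Of the 90 further biogenesis genes 23 fell and 1 rose, and of the 20 cell cycle genes 15 fell and 0 rose. Of the 78 ribosomal protein genes 35 rose and 3 fell. These 3 lists were not tested with ERCC scaling. The mitochondrial share of fragments was 5.32% to 5.86% at 3 days and 6.70% to 7.38% at 6 days, and its part in the result was not tested. The count depended on 1 library and on the scaling. It was 5 without 6-day DMSO replicate 2 and 10 without 3-day DMSO replicate 1, 9 with library size alone, and with ERCC scaling 4 genes were called, all higher, with a median of 0.09 for the 42 and 0.35 for all genes. In that scaling NCL rose by 0.12, while UTP20 (-0.25) and NOC2L (-0.13) were not called.

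In NGP the same comparison called 6 of the 42, 2 higher and 4 lower, beside 12.1% of all genes (5.37% higher, 6.72% lower), a share near the background. The RNA helicase DDX21 and FBL were higher, and NOC2L, NCL, NHP2 and NOLC1 lower. NOC2L went from 182 and 182 CPM to 121 and 142, and NCL from 2407 and 2439 to 1871 and 2066. Leaving out 3-day replicate 1 or 2 left 3 and 2 genes. With ERCC scaling 15 were called, all lower. In STM2457 the 6-day against 3-day comparison called 2 genes in Kelly, UTP20 (-0.47 ± 0.10, SE) and NCL (-0.16 ± 0.04), both lower, beside 2.39% of all genes. In NGP it called 5, all higher (DDX21, FBL, NPM1, NOP14 and BOP1), beside 5.48% of all genes. NPM1 rose there by 0.35 ± 0.04. With ERCC scaling 28 genes in Kelly and 9 in NGP were called, all lower; without 1 library 1 to 3 of the 5 NGP genes were left. The ERCC calls in STM2457 stand beside 2403 of all genes in Kelly and 3209 in NGP. The DMSO and STM2457 libraries of these comparisons are the ones that give the 0 h effects above, so the values are not independent of them.

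**Figure D3:**
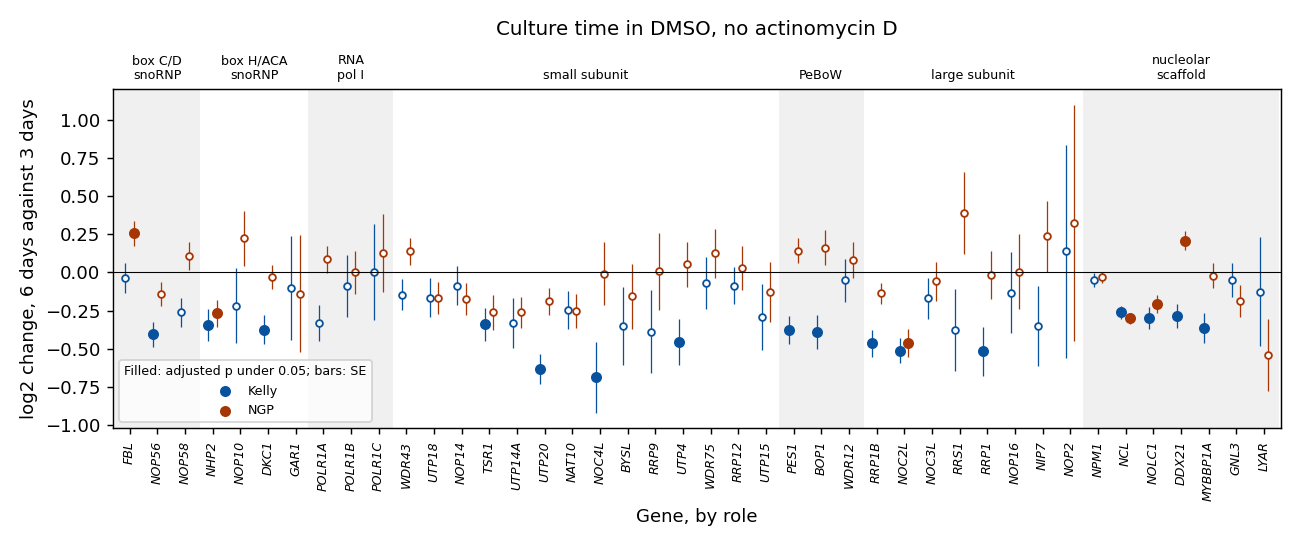
Log2 change at 6 days against 3 days of culture in DMSO without actinomycin D, for each of the 42 genes by role; blue points are Kelly, brown points NGP, bars are SE and filled points passed the test. The blue points lie below 0 for 40 of the 42 genes, 16 of them filled.

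Under actinomycin D some of the 42 transcripts were lost faster than the typical one, some outlasted it and the rest were not called. After 6 h in DMSO, 25 of the 42 had changed in Kelly at 3 days (10 higher, 15 lower, beside 30.1% of all genes) and 25 at 6 days (9 higher, 16 lower, beside 26.5%). In NGP it was 25 at 3 days (12 higher, 13 lower, beside 37.4%) and 30 at 6 days (13 higher, 17 lower, beside 36.7%). The share called was above the background in each comparison. That background is all genes that passed the filter on low counts, and shares among genes of similar count were not computed. In STM2457 the counts were 27, 29, 27 and 30, beside 26.9%, 26.4%, 32.5% and 32.1%. "Higher" here means that a transcript's share of the remaining mRNA rose. Under ERCC scaling the all-gene median fell in the DMSO comparisons by 0.34 and 1.18 in Kelly and by 0.81 and 1.10 in NGP, and the calls became 2 higher and 24 lower, 0 and 41, 0 and 37, and 0 and 39. Library size alone gave 8 higher and 19 lower, 8 and 22, 7 and 21, and 9 and 22.

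By the mean of the 4 DMSO comparisons NOP16, a large subunit factor, and BYSL fell most, with log2 changes of -2.67 and -2.62 closer together than the SE of a single comparison. In Kelly at 3 days in DMSO NOP16 went from 44.2 and 52.8 CPM at 0 h to 25.1 and 19.7 at 3 h and 5.1 and 6.9 at 6 h. The NGP libraries of 3 days went from 43.5 and 43.3 CPM to 16.7 and 17.5 and then to 6.8 and 8.0. No 2 time points overlapped. The 6 h log2 changes of NOP16 were -3.01 ± 0.30 (SE) and -2.57 ± 0.29 in Kelly and -2.55 ± 0.27 and -2.53 ± 0.27 in NGP, at 3 and 6 days each. RRS1, another large subunit factor, fell by 2.65 and 1.73 in Kelly and by 2.00 and 1.57 in NGP. The small subunit factor WDR43 fell by 1.82 and 1.74 in Kelly and by 1.15 and 1.23 in NGP. These genes and BYSL were called in all 4 DMSO comparisons, and so were LYAR, POLR1B, RRP1, UTP18 and WDR75. Under ERCC scaling the falls of NOP16, BYSL, RRS1 and WDR43 were larger, between 1.95 and 3.85.

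By the same mean the slowest transcripts were NHP2, NOC2L, NOLC1 and FBL (0.63), with NPM1 close behind. The order was not the same in each comparison: BOP1 was above NOLC1 and FBL in Kelly (0.59 and 0.69), and NPM1 was above them in NGP at 6 days (0.90). NHP2 read 133 and 149 CPM at 0 h and 229 and 263 at 6 h in Kelly at 3 days, and 134 and 133 against 228 and 229 in NGP. Its log2 changes were 0.80, 0.99, 0.77 and 0.98 (SE 0.09 to 0.10). NOC2L rose by 0.48 to 0.93, NOLC1 by 0.49 to 0.80 and FBL by 0.47 to 0.77. DDX21, NCL, NOC3L and NPM1 were also higher in all 4 DMSO comparisons. This order holds relative to the typical transcript: with ERCC scaling NHP2, NOC2L, NOLC1 and FBL had log2 changes of 0.12 to 0.37 in Kelly at 3 days and of -0.03 to -0.81 in the other 3 comparisons, and none of them was higher there. NOC4L, NOP2 and RRP12 were called in none of the 8 comparisons of DMSO and STM2457.

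After 3 h of actinomycin D changes in both directions were already present among the 42 genes. In DMSO 18 of the 42 had changed in Kelly at 3 days (11 higher and 7 lower, beside 19.9% of all genes) and 19 at 6 days (8 and 11, beside 18.2%). In NGP it was 18 at 3 days (13 and 5, beside 24.1%) and 20 at 6 days (13 and 7, beside 21.4%). RRS1 showed the largest fall in Kelly at this time, with log2 changes of -1.57 and -2.19, against -0.82 and -1.25 in NGP. NOP16 changed by -1.12 and -1.40 in Kelly and by -1.34 and -1.42 in NGP. BYSL changed at 3 h by -0.90 and -1.83 in Kelly and by -0.63 and -1.26 in NGP in DMSO, and in STM2457 by -0.53, -0.84, -0.27 and -0.46 in the same order. The difference between treatments at 3 h was not tested.

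By role, scaffold transcripts were mostly among those that outlasted the typical one. Of the 7 scaffold genes 5, 4, 5 and 5 were higher after 6 h in the 4 DMSO comparisons and 2, 2, 2 and 1 lower, LYAR among the latter. Of the 3 RNA polymerase I subunits 2, 3, 2 and 2 were lower and 0 higher. Of the 14 small subunit factors 4, 6, 5 and 7 were lower and 0, 0, 1 and 3 higher. Of the 78 cytosolic ribosomal protein genes 74, 74, 75 and 74 were higher, with median log2 changes of 0.76 to 0.82. The 90 further biogenesis genes were mixed, with 36, 37, 27 and 40 lower and 15, 15, 22 and 17 higher. PES1, the leading PeBoW gene, changed by 0.03, -0.07 and 0.11 and was lower in NGP at 6 days alone (-0.42 ± 0.08, SE). RRP1B was lower in Kelly at 3 days (-0.35 ± 0.09, SE) and not called in the other 3.

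The order of the genes was much the same in the lines. Across the 42 genes the 6 h log2 change in Kelly and that in NGP correlated with Pearson's r of 0.94 at 3 days and 0.87 at 6 days in DMSO, and 0.91 and 0.92 in STM2457 (Spearman's rho 0.83 to 0.92). For the 8462 genes that averaged 10 CPM or more in each line, r was 0.88 and 0.81 in DMSO and 0.87 and 0.85 in STM2457. These are descriptions across genes, which are not independent replicates, and the lines share no library.

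**Figure D4:**
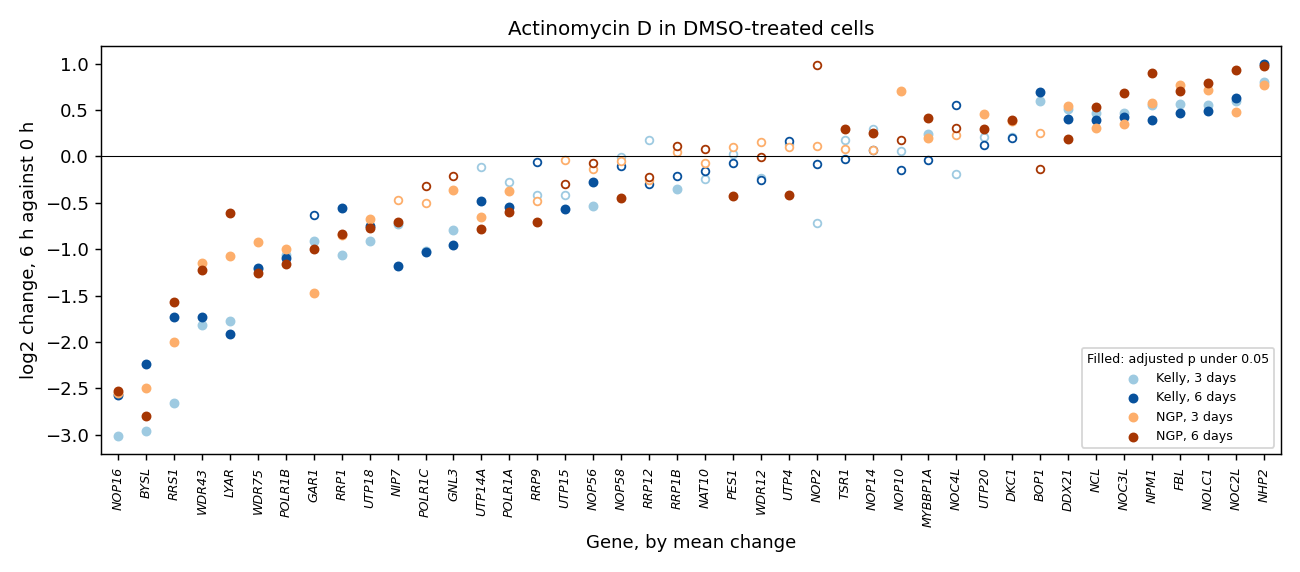
Log2 change after 6 h of actinomycin D against 0 h in DMSO, for each of the 42 genes ordered by the mean of the 4 comparisons; colours mark line and culture time and filled points passed the test. By that mean NOP16, BYSL, RRS1 and WDR43 come first and NHP2, NOC2L, NOLC1 and FBL last, while single comparisons differ in order.

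The study's own question for these libraries was whether METTL3 inhibition changes how fast transcripts disappear. It was tested as the difference between the 6 h log2 change in STM2457 and that in DMSO, positive where the transcript lasted longer in the inhibitor. BYSL, which encodes bystin, a factor of late small subunit assembly, lasted longer with STM2457 in both lines. It was the only one of the 42 called in Kelly at 3 days (beside 0.221% of all genes) and in NGP at 3 days (beside 0.703%). In NGP at 6 days BYSL was called with NPM1 and GNL3 (beside 2.54%), and those genes went the other way. In Kelly at 6 days 0 of the 42 were called (beside 0.424%). There 6 had an unadjusted p under 0.05 in edgeR, and the share of all genes at that p was not computed. DESeq2 called 1 there, beside 179 of all genes, and limma-voom 0. DESeq2 called 2 genes at 3 days in each line, beside 96 of all genes in Kelly and 167 in NGP. In the 6-day NGP libraries it called 5, beside 593 of all genes.

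In Kelly at 3 days BYSL in DMSO fell from 39.8 and 41.4 CPM at 0 h to 22.3 and 21.2 at 3 h and 3.5 and 7.0 at 6 h. In STM2457 it went from 56.2 and 55.1 CPM to 39.6 and 37.3 and then 20.8 and 24.5. So at each time both STM2457 libraries were above both DMSO libraries. The treatments began at the same level in NGP at 3 days, with 40.5 and 42.0 CPM in DMSO and 43.5 and 38.6 in STM2457. At 3 h they read 26.8 and 26.5 against 32.8 and 35.5, and at 6 h 9.1 and 5.3 against 29.0 and 31.3. The groups overlapped at 0 h and were apart at 3 h and 6 h.

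After 6 days BYSL in NGP went from 38.4 and 35.6 CPM through 16.2 and 14.6 to 4.5 and 6.2 in DMSO, and from 41.0 and 50.3 through 33.9 and 32.3 to 22.0 and 17.3 in STM2457. In Kelly it went from 35.9 and 27.7 CPM through 6.7 and 11.2 to 7.9 and 5.5 in DMSO, and from 39.8 and 42.4 through 23.5 and 22.5 to 17.3 and 11.4 in STM2457. The STM2457 libraries were the higher ones at each of these times too. The 0 h difference itself was not called in any comparison, with log2 changes of 0.45, 0.37, -0.01 and 0.30 and adjusted p-values of 0.649, 0.668, 1 and 0.531 in the edgeR quasi-likelihood test (Benjamini-Hochberg).

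**Figure D5:**
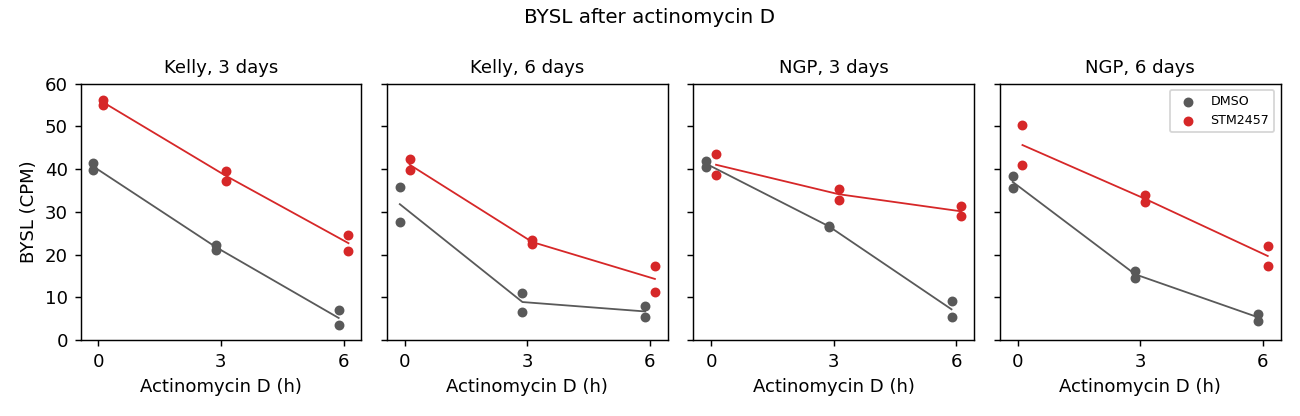
BYSL in each library, in CPM on an axis from 0, against hours of actinomycin D; grey is DMSO, red is STM2457, lines join the means of 2 libraries. In each panel the red points at 3 h and 6 h lie above the grey points of the same time.

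The 6 h log2 change of BYSL in Kelly was -2.96 ± 0.29 (SE) with DMSO and -1.29 ± 0.26 with STM2457 at 3 days, and -2.24 ± 0.28 and -1.52 ± 0.26 at 6 days. In NGP it was -2.50 ± 0.23 and -0.45 ± 0.21 at 3 days, and -2.80 ± 0.24 and -1.21 ± 0.22 at 6 days. The differences were 1.67 ± 0.38 and 0.73 ± 0.37 in Kelly and 2.05 ± 0.31 and 1.59 ± 0.32 in NGP. Their adjusted p-values in the edgeR quasi-likelihood test (Benjamini-Hochberg) were 0.0116, 0.617, 2.52e-05 and 0.000488. Whether the difference in Kelly at 6 days is smaller than the others was not tested. Both NGP calls held in each of 8 refits without 1 library. In Kelly at 3 days the call was lost in 5 of 8, without DMSO replicate 2 or either STM2457 library at 0 h, DMSO replicate 1 at 6 h or STM2457 replicate 2 at 6 h, with differences of 1.25 to 1.68. It was also lost with limma-voom (1.73, adjusted p = 0.383). ERCC scaling gave 1.26, 1.42, 2.19 and 2.02, and all 4 were then called. That scaling also moved the median difference of all genes, to -0.37, 0.70, 0.14 and 0.41 in the same order.

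BYSL lies on chromosome 6 (41921499 to 41933046, plus strand, GRCh38) and has 7 exons, none of whose bases lie in another gene. METTL3 methylates adenosine in a short sequence context of which GGACT is the best known form. Its letters occur 3 times in the GENCODE 44 transcript of BYSL. The places in coding sequence are shown with GGACT in capitals, in exons 1 and 4, because this is the transcript whose loss differed.
BYSL exon 1, chr6:41921771-41921799, plus strand: aggccgagcatgGGACTggggacaagccc
BYSL exon 4, chr6:41930726-41930754, plus strand: agccggaggcctGGACTgcagctgccatg
GGACT is common: 92.1% of 10222 transcripts of genes with a mean count of at least 100 and 88.1% of the transcripts of the 42 genes hold it. Its density was alike too, with a median of 0.931 per kilobase in the 42 transcripts and 0.896 in the 10222. GGACT occurs 4 times in the transcript of RRS1 and 1 time in those of NOP16 and GNL3. It occurs 0 times in those of NPM1 and NOC2L. A match of letters says nothing of whether the adenosine is methylated, and m6A was not measured in these libraries.

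GNL3 (nucleostemin, a nucleolar GTPase of proliferating cells) and NPM1 had a lower 6 h change with STM2457 than DMSO in NGP at 6 days. This is relative to the typical gene. GNL3 read 133 and 124 CPM at 0 h and 109 and 112 at 6 h in DMSO, and 135 and 141 against 77.8 and 74.9 in STM2457. At 0 h both STM2457 libraries were slightly above the DMSO libraries, and at 6 h both were below them. The difference was -0.64 ± 0.15 (SE; adjusted p = 0.00497 in the edgeR quasi-likelihood test (Benjamini-Hochberg)). In the other 3 comparisons it lay between -0.16 and 0.01 and was not called. NPM1 rose from 2128 and 2162 CPM to 3940 and 4075 in DMSO and from 2078 and 2002 to 2943 and 2978 in STM2457, so its share rose in both treatments and less in STM2457. That difference was -0.36 ± 0.05 (SE; adjusted p = 3.59e-07 in the edgeR quasi-likelihood test (Benjamini-Hochberg)). With ERCC scaling, which moved the median difference of all genes to 0.41, NPM1 was at 0.06 and GNL3 at -0.21, and neither was called.

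NOP16 and RRS1, which with BYSL had the largest falls in DMSO by the mean of 4 comparisons, were not called for the difference. NOP16 in STM2457 fell by 2.69 and 3.19 in Kelly and by 2.98 and 3.05 in NGP, and its differences were 0.32, -0.62, -0.42 and -0.52 (SE 0.37 to 0.40), none of them called. RRS1 had differences of 0.20, -0.38, 0.67 and -0.03 (SE 0.39 to 0.40), also not called. Standard errors of this size do not show that these genes behaved alike in both treatments. Over the 42 genes the median difference was -0.05 and -0.07 in Kelly and -0.01 and -0.12 in NGP, beside 0.02, 0.01, 0.00 and -0.02 for all genes. Of the 90 further biogenesis genes 1, 1, 1 and 4 were called in Kelly at 3 and 6 days and NGP at 3 and 6 days, all lasting longer in STM2457. SURF6, a nucleolar matrix protein, was the one called at 3 days in both lines (1.13 ± 0.23 and 0.87 ± 0.22, SE), and UBTF, the transcription factor of RNA polymerase I, was called at 6 days in both (0.49 ± 0.12 and 0.48 ± 0.10). Scaled to ERCC, the counts among the 42 were 1 longer and 19 shorter, 29 longer, 6 longer and 16 longer in the same order. Of all genes that scaling called 2418, 5033, 158 and 2592.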

How the data were processed

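Per the file headers, the authors deposited raw counts of fragments per gene, made with featureCounts 1.5.3 on paired-end alignments at gene-name level, with the protein-coding genes of GENCODE 33 and 92 ERCC sequences and no option for strand or multi-mapping named. Per the submitters' processing notes, FastQC 0.11.5, Trimmomatic 0.36, HISAT2 2.1.0, Subread 1.5.3 and build GRCh38 were used. The deposited counts are neither normalized nor filtered.

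The tests used the quasi-likelihood method of edgeR 4.0.16 under R 4.3.3 (TMM scaling, filterByExpr by group with a minimum count of 10 and minimum total of 15). One fit of 24 libraries and 12 groups per line covered 16759 genes in Kelly and 14661 in NGP, and a joint fit of 48 libraries covered 17343 for line differences. P-values were adjusted by Benjamini-Hochberg over all genes of a comparison, with a threshold of 0.05. Each SE was derived from the log2 change and its F statistic, as their ratio after taking the root of F. CPM values rest on library sizes times TMM factors. Because TMM centres on the typical gene, a loss common to all genes does not show. Alternatives were RLE size factors, library size, ERCC scaling, no filter, the replicate number as a block, DESeq2 1.42.0, limma 3.58.1 (voom), libraries of 1 culture time, and each library left out in turn. The fits were tested on simulated data. Replicates of a group differed by more than sampling noise (chi-square per gene 6.87 to 23.0), so none was counted as 1 sample.

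The members, the other lists (90 further ribosome biogenesis genes, 78 cytosolic ribosomal proteins, 20 cell cycle genes and the markers) and the tests were chosen with earlier results of these data known. Values per library were planned for genes called at 0 h in at least 2 of 4 comparisons. The plan also held genes called for a difference in decay, duration or line. To these it added the 4 fastest and 4 slowest after actinomycin D and the leading gene of each role. Values per library are given for NPM1, NCL, NOC2L, BYSL, GNL3, NOP16, NHP2 and UTP20. The other genes of the plan have log2 changes, group means or ranges only. UTP20 was added after its values were seen, and so were all alternatives of the culture time comparisons and that comparison in STM2457. Promoter windows came from RefSeq (GRCh38.p14) and transcripts from GENCODE 44.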

Additional observations from a re-analysis of the deposited data

Results flagged for a closer look

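The values listed here come from tests of a difference between effects (edgeR quasi-likelihood, Benjamini-Hochberg), each with its SE. The loss of BYSL after 6 h of actinomycin D differed between STM2457 and DMSO by 1.67 ± 0.38 in Kelly at 3 days, by 2.05 ± 0.31 in NGP at 3 days and by 1.59 ± 0.32 in NGP at 6 days, in each case with less loss in STM2457. In NGP at 6 days the same difference was -0.36 ± 0.05 for NPM1 and -0.64 ± 0.15 for GNL3. The effect of STM2457 at 0 h in NGP was more positive at 6 days than at 3 days by 0.38 ± 0.05 for NPM1, 0.36 ± 0.05 for NCL, 0.36 ± 0.08 for NOLC1, 0.53 ± 0.15 for NOP14 and 0.54 ± 0.13 for NOC2L. At 6 days it differed between the lines for NPM1, by 0.22 ± 0.06 (NGP minus Kelly). No group holds 4 libraries or more, so single libraries far from the rest were not looked for within groups.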

How the results depend on the processing

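A value was counted as turned only if its direction changed and it was called in either fit. Values called in neither fit were counted as kept even where their sign changed. Of 106 values of single genes, RLE size factors and the replicate block kept 106. Library size kept 103, no filter 104, DESeq2 103 and limma-voom 101. Fits of 1 culture time kept 88 of 88. With ERCC scaling 56 were kept, 15 lost the call, 9 gained it and 26 turned. No paired use of the replicate numbers is supported by the labels: the replicate differences of paired groups correlated with r of -0.01 to 0.08. With the replicate block the count of the decay difference in NGP at 3 days became 2, as it did with fits of 1 culture time, and no other count moved by over 1.5 times. A refit that leaves a group with 1 library assumes that it varies like the others. With 2 libraries a group, small changes of thin genes such as NOP2 cannot be called at this depth. The cause of the shifts below was not tested.

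ERCC scaling changed many counts, and the numbers of all genes called with it are given above. The members called at 0 h became 18 (3 days) and 7 (6 days) in Kelly and 3 in NGP at 3 days. They became 41 for actinomycin D in DMSO in Kelly at 6 days. For the decay difference they became 20 and 29 in Kelly and 6 and 16 in NGP. For the duration difference they became 27 in Kelly and 2 in NGP. For culture time they became 4 in Kelly and 15 in NGP in DMSO, and 28 and 9 in STM2457. For the line difference they became 10 at 3 days and 5 at 6 days. Of single genes, the 0 h change in Kelly at 3 days turned for NPM1 (0.06), NOC2L (0.11), NOLC1 (0.31), NOP58 (0.30) and DKC1 (0.26), and at 6 days for NOLC1 (-0.22). The actinomycin D change in DMSO turned for NHP2 (-0.28), NOC2L (-0.65), NOLC1 (-0.79) and FBL (-0.81) in Kelly at 6 days. It turned for the same 4 genes in NGP at 3 days (-0.03, -0.32, -0.089 and -0.029) and at 6 days (-0.074, -0.12, -0.26 and -0.35). The decay difference turned for GNL3 (0.61) and NPM1 (0.64) in Kelly at 6 days and for NPM1 (0.063) in NGP at 6 days. The duration difference in Kelly turned for NCL (-0.55), NOC2L (-0.38), NOLC1 (-0.53) and NPM1 (-0.59), and the culture time change of NCL in Kelly became 0.12.

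DESeq2 called 12 members at 0 h in NGP at 3 days. For the decay difference it called 2, 1, 2 and 5, in Kelly at 3 and 6 days and NGP at 3 and 6 days. For the duration difference it called 1 in Kelly and 11 in NGP. The numbers of all genes it called are given above. Limma-voom called 1 at 0 h in Kelly at 3 days, 0 and 2 for the decay difference in Kelly and NGP at 3 days, and 1 for culture time in STM2457 in Kelly. Library size alone gave 2 for the decay difference in NGP at 3 days, and 9 and 1 for culture time in Kelly in DMSO and in STM2457.

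Leaving out 1 library at a time, the members called at 0 h ranged from 1 to 3 in Kelly at 3 days, from 2 to 4 in NGP at 3 days and from 1 to 3 in NGP at 6 days. For the decay difference they ranged from 0 to 1 in Kelly at both times, from 1 to 3 in NGP at 3 days and from 3 to 6 at 6 days, and for the duration difference in NGP from 3 to 5. For culture time they ranged from 5 to 12 in Kelly and from 2 to 5 in NGP in DMSO, and from 1 to 2 and from 1 to 3 in STM2457. For the line difference at 6 days they ranged from 0 to 1. Of 520 values of single genes 469 were kept, 50 lost the call, 1 gained it and 0 turned, counted as above. Some values called in neither fit changed sign, such as NOP10 at 0 h in Kelly at 6 days (0.135, lowest -0.108).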
